A study of Mus musculus with 12 samples.

Results

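The genes described here move calcium across lens cell membranes or sense it inside the cell: the plasma membrane entry channels Cacna1h and Orai1, the reticulum calcium sensor Stim1, the inositol trisphosphate (IP3) receptors Itpr1, Itpr2 and Itpr3, the calcium pumps Atp2a2, Atp2b1 and Atp2b4, and the calcium-binding protein Cabp5. They were taken by symbol from the deposited table of read counts, which listed 9 of the 10 among its 8676 genes. Each gene of that table exceeded 3 CPM (reads of the gene scaled to library size) in at least 6 of the 12 libraries, and Atp2b4 was not listed and was not analysed here. The set was chosen by role with earlier results of these same counts known. Cacna1h, Itpr3 and Cabp5 were treated here as chosen by their fold changes over wild type in those results. Their differences between genotypes are given as a description with no test, while the 6 other listed genes were tested.

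RNA was sequenced from lenses of mice on a C57BL/6J background at postnatal day 7 (P7), to compare the Epha2 alleles with wild type. There were 3 libraries for each of 4 genotypes, each made from a pool of 6 lenses. The edited founders were bred onto this background, for a number of generations that the methods do not give. Epha2-Q722 mice were homozygous for a CRISPR/Cas9 knock-in that puts glutamine in place of arginine in the tyrosine kinase domain of EPHA2, a receptor of the ephrin system, and Epha2-indel722 mice were homozygous for an insertion-deletion at the same codon, which came from 1 founder of the same editing. Epha2-null mice carried a plasmid vector inserted in an exon upstream of the kinase domain, and wild-type mice carried none of these alleles. Each mutant genotype was a line of its own, so effects of the allele and of the line cannot be told apart.

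Calcium is kept low in the cytoplasm of lens cells, and a rise in lens calcium is a known feature of cataract, in part through calcium-activated proteases that cut lens proteins. Receptors coupled to phospholipase C produce IP3, which opens the IP3 receptors in the endoplasmic reticulum. When the reticulum empties, STIM1 opens ORAI1 channels in the plasma membrane, the SERCA pump encoded by Atp2a2 refills the reticulum, and the PMCA pumps of the Atp2b genes push calcium out of the cell. CACNA1H forms the pore of a T-type channel, which opens at slight depolarization, and CABP5 is a calmodulin-like protein best known from retinal bipolar cells.

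The genes were spread over several chromosomes (mm10/GRCm38, GENCODE vM21 gene spans). Cacna1h (chr17:25374285-25433783, minus strand) and Itpr3 (chr17:27057304-27122223, plus strand) were 1.62 Mb apart, and Orai1 and Atp2a2 were 0.513 Mb apart on chromosome 5. Cabp5 (chr7:13398132-13408887, plus strand) and Stim1 (chr7:102267806-102437319, plus strand) were 88.9 Mb apart on chromosome 7, Itpr1 and Itpr2 were on chromosome 6, and Atp2b1 was on chromosome 10. Cabp5 and Atp2b1 overlapped no annotated gene. The other listed genes overlapped genes that the count table did not list, and reads of Itpr3 and of its opposite-strand partner Itpr3os cannot be told apart without a stated strand setting.

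RefSeq promoter windows (GRCm38.p6, 300 bases around a gene start) were matched by symbol for Cabp5, Stim1, Itpr2, Itpr3, Orai1, Atp2b1 and Atp2b4, and Cacna1h, Itpr1 and Atp2a2 had no entry. Those of Cabp5, Itpr3 and Stim1 are shown because these genes were higher in at least 1 mutant genotype. Capitals mark GGGCGG, the GC box bound by SP1, on either strand.
Cabp5 promoter (chr7:13397905-13398204, plus strand): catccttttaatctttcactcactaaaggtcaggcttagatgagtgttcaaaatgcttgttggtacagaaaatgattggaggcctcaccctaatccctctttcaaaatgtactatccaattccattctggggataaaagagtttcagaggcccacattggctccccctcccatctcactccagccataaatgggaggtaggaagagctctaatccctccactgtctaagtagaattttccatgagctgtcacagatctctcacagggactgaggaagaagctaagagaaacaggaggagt
Itpr3 promoter (chr17:27057054-27057353, plus strand): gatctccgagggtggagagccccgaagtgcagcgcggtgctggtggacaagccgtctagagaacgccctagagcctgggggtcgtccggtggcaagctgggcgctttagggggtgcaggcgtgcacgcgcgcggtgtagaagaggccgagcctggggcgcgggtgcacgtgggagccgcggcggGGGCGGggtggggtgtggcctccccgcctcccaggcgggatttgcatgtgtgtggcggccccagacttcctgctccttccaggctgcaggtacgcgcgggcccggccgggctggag
Stim1 promoter (chr7:102267569-102267868, plus strand): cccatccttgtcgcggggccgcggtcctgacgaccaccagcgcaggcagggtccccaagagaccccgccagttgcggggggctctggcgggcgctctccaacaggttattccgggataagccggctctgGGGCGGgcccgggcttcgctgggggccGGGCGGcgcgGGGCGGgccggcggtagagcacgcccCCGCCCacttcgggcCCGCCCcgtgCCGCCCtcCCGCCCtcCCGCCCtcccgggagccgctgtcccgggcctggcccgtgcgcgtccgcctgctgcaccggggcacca
The window of Cabp5 was 44.7% G or C and held 0 CG dinucleotides and 0 GC boxes, that of Itpr3 was 72.3% G or C with 30 CG dinucleotides and 1 GC box, and that of Stim1 was 78.7% G or C with 38 CG dinucleotides and 8 GC boxes. Among all 32851 promoter windows the median was 52.7% G or C with 7 CG dinucleotides, and 35.7% held the GC box. A match of letters is a description and not a site.

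Libraries held 14543069 to 20340688 reads, of which 57.2% to 64.4% were from the 16 crystallin genes, and all 9 lens fiber and all 5 lens epithelial markers were listed. Epha2 itself had 45.0 to 54.4 normalized CPM in Epha2-Q722 lenses, 19.97 to 21.6 in Epha2-indel722 lenses, 30.6 to 36.9 in Epha2-null lenses and 51.4 to 63.1 in wild-type lenses. Reads from other exons remain possible with an inserted vector, so this level does not check the null label. Replicate 3 of each mutant genotype stood apart from the other libraries of its genotype: the chi-square per degree of freedom over all genes was 32.2 to 108 in pairs with it, against 17.7 to 22.6 in the pairs without it and 12.4 to 17.0 between wild-type libraries. Calls and signs of the 9 genes that changed without these 3 libraries are given with and without them.

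Marker sums also moved with genotype. The 9 fiber markers summed to 299233 to 312017 normalized CPM in Epha2-Q722, 289172 to 303330 in Epha2-indel722, 231303 to 259070 in Epha2-null and 312075 to 340886 in wild-type libraries. The 16 crystallins summed to 577450 to 629570 normalized CPM in Epha2-Q722, 558741 to 643083 in Epha2-indel722, 510828 to 547392 in Epha2-null and 681957 to 727182 in wild-type libraries. Both sums were below wild type in every mutant library. The 5 epithelial markers summed to 363 to 419 normalized CPM in Epha2-Q722, 349 to 373 in Epha2-indel722, 330.02 to 344 in Epha2-null and 306 to 339 in wild-type libraries, above wild type without overlap in the edited genotypes. The part of fiber and epithelial cells in the differences of the calcium genes was not tested.

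Levels are given as normalized CPM, for which library totals were multiplied by TMM factors, a scaling that takes most genes as unchanged. Divided by exon length, Atp2a2 had by far the highest level in wild-type lenses, 18.1 ± 0.368 normalized CPM per kb (SD, n = 3). Cabp5 (3.12 ± 0.289) and Orai1 (2.90 ± 0.134) followed and overlapped each other, and Itpr1 came next at 1.11 ± 0.169, above all genes below it. Itpr2 (0.531 ± 0.0670), Stim1 (0.4996 ± 0.0118), Cacna1h (0.463 ± 0.0861), Itpr3 (0.387 ± 0.0782) and Atp2b1 (0.308 ± 0.0194) were not separated from their neighbours in this order. With coding length used for exon length the first 4 places stayed the same. Cabp5 then no longer overlapped Orai1, but Itpr1 overlapped Stim1, the next gene below it. Atp2b1 took the sixth place and Itpr3 the last.

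**Figure D1:**
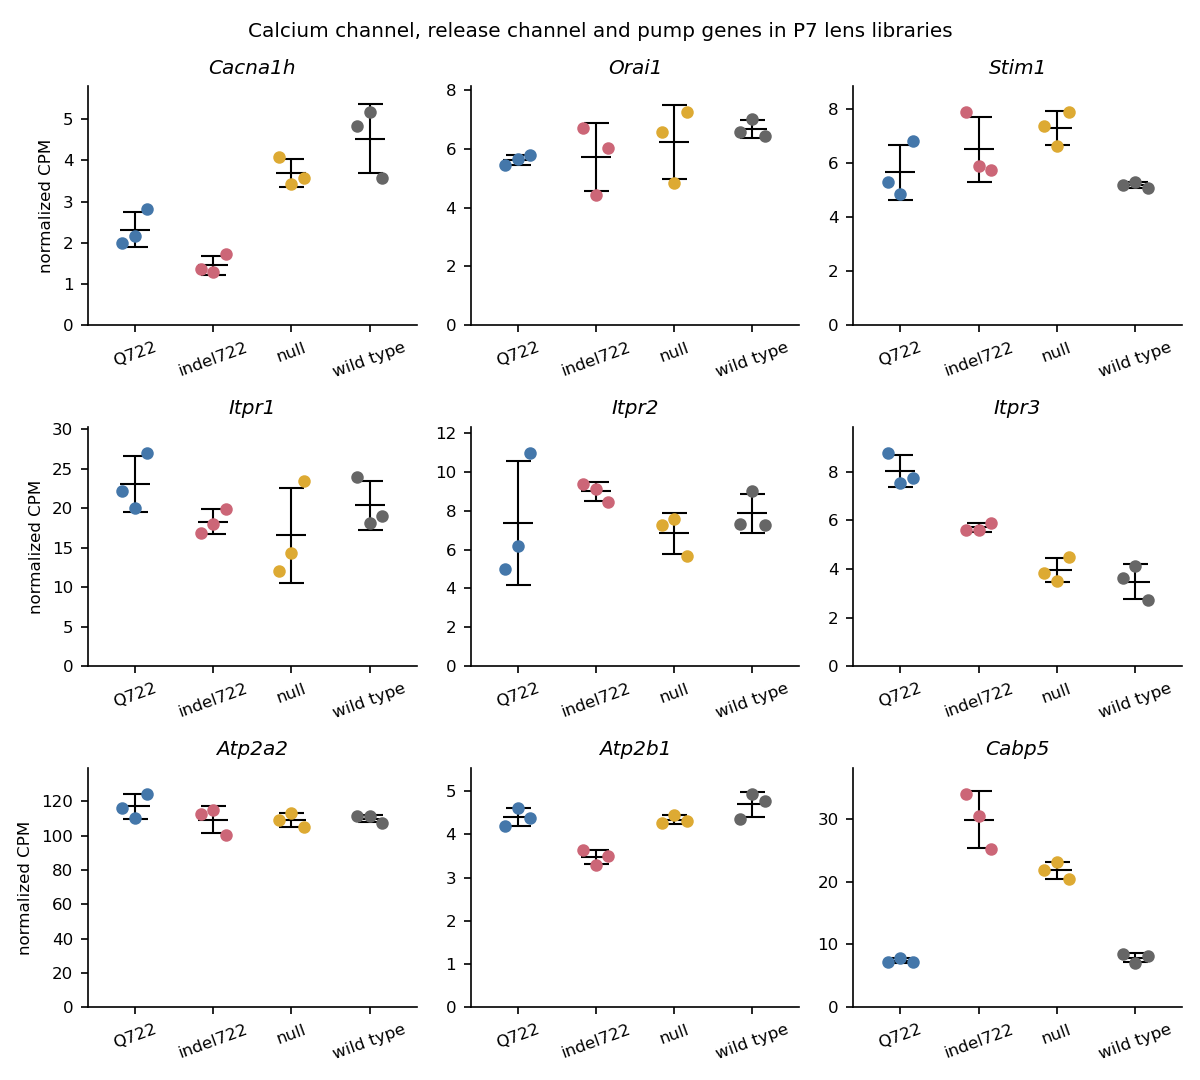
Normalized CPM (linear axes from 0) of the 9 listed genes, with 1 point per library in the order of replicates 1 to 3 and bars for the mean and SD, for Epha2-Q722, Epha2-indel722, Epha2-null and wild-type lenses. Cabp5 lay between 20.5 and 34.0 normalized CPM in Epha2-indel722 and Epha2-null libraries and between 7.06 and 8.43 in Epha2-Q722 and wild-type libraries, and in every Epha2-Q722 and Epha2-indel722 library Itpr3 lay above and Cacna1h below all wild-type libraries.

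Cacna1h, an entry gene, lay apart from wild type in 2 of the 3 mutant genotypes. Its level was 2.004, 2.15 and 2.81 normalized CPM in Epha2-Q722 lenses and 1.37, 1.28 and 1.72 in Epha2-indel722 lenses. It was 4.08, 3.42 and 3.57 in Epha2-null lenses and 4.82, 5.18 and 3.58 in wild-type lenses. Every Epha2-Q722 and Epha2-indel722 library thus lay below every Epha2-null and wild-type library, Epha2-indel722 lay below Epha2-Q722, and Epha2-null overlapped wild type. Only the Epha2-null and wild-type libraries exceeded the 3 CPM needed for a gene to be listed. Cacna1h was therefore listed through the groups where it is high, and the separation of the groups is in part set by that filter. The log2 fold change over wild type was -0.94 (95% interval -1.31 to -0.57) in Epha2-Q722 lenses, -1.63 (-2.04 to -1.23) in Epha2-indel722 lenses and -0.29 (-0.63 to 0.05) in Epha2-null lenses. Without replicate 3 of each mutant genotype, the value in Epha2-Q722 lenses was -1.11, past a 2-fold change. These levels rest on 26 to 88 reads per library, and the gene shares 158 exonic bases with the unlisted Tpsg1 on the opposite strand.

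Orai1, the channel of store-operated entry, had 5.43, 5.66 and 5.77 normalized CPM in Epha2-Q722 lenses, 6.70, 4.44 and 6.03 in Epha2-indel722 lenses, 6.58, 4.82 and 7.26 in Epha2-null lenses and 6.55, 7.00 and 6.42 in wild-type lenses. The Epha2-Q722 libraries lay below the wild-type ones without overlap, and the other groups overlapped. In none of the 3 comparisons did it pass the edgeR quasi-likelihood test (log2 fold change -0.24 and adjusted p = 0.436 for Q722, -0.22 and 0.396 for indel722, -0.11 and 0.727 for null), and the widest of the intervals reached -0.56. Scaled by library totals alone, the value in Epha2-null lenses turned positive (0.16).

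Stim1, the sensor that opens Orai1, was higher in Epha2-null lenses, with 7.38, 6.63 and 7.89 normalized CPM, against 5.19, 5.30 and 5.05 in wild-type lenses. Each Epha2-null library exceeded each wild-type library, and the rise passed the edgeR test (log2 fold change 0.49 ± 0.15, SE, or 1.41-fold, adjusted p = 0.0302). In Epha2-indel722 lenses it had 7.88, 5.87 and 5.74 normalized CPM, also above every wild-type library, with a log2 fold change of 0.33 ± 0.15 that did not pass (edgeR adjusted p = 0.147). Epha2-Q722 lenses, with 5.30, 4.86 and 6.79 normalized CPM, overlapped wild type (log2 fold change 0.13 ± 0.15, edgeR adjusted p = 0.729). Leaving out single libraries moved the adjusted p in Epha2-null lenses between 0.0149 and 0.121, and the call was lost in 5 of the 12 cases: any 1 wild-type library, or Epha2-null replicate 1 or 3. The DESeq2 adjusted p was 0.0529. Without replicate 3 of each mutant genotype, Stim1 passed in Epha2-null lenses (0.43, edgeR adjusted p = 0.0427) and also in Epha2-indel722 lenses (0.41, edgeR adjusted p = 0.0439), and its value in Epha2-Q722 lenses was -0.035.

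Reads of Stim1 per 100 reads of Orai1, a ratio free of scaling between libraries, were 97.6, 85.8 and 118 in Epha2-Q722 lenses and 118, 132 and 95.2 in Epha2-indel722 lenses. They were 112, 138 and 109 in Epha2-null lenses and 79.3, 75.6 and 78.8 in wild-type lenses. All 9 mutant libraries therefore had a higher ratio than all 3 wild-type libraries, which is a description of these libraries.

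Among the IP3 receptors, Itpr3 separated the genotypes. Its level was 8.79, 7.56 and 7.76 normalized CPM in Epha2-Q722 lenses, 5.62, 5.62 and 5.91 in Epha2-indel722 lenses, 3.86, 3.52 and 4.49 in Epha2-null lenses and 3.61, 4.12 and 2.73 in wild-type lenses. Epha2-Q722 stood above Epha2-indel722 and Epha2-indel722 above the other 2 groups without overlap, while Epha2-null overlapped wild type. The fold over wild type was 2.30 (95% interval 1.88 to 2.82) in Epha2-Q722 lenses, 1.64 (1.33 to 2.03) in Epha2-indel722 lenses and 1.14 (0.905 to 1.43) in Epha2-null lenses.

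Itpr1, the form known above all from neurons and smooth muscle, had 22.1, 20.1 and 27.0 normalized CPM in Epha2-Q722 lenses, 16.8, 18.0 and 19.9 in Epha2-indel722 lenses, 12.03, 14.4 and 23.4 in Epha2-null lenses and 23.9, 18.1 and 19.0 in wild-type lenses. All 3 mutant groups overlapped wild type, and no comparison passed the edgeR test (log2 fold change 0.19 and adjusted p = 0.744 for Q722, -0.15 and 0.754 for indel722, -0.29 and 0.529 for null). One library set the result in Epha2-null lenses: without its replicate 3 the log2 fold change was -0.61 (edgeR adjusted p = 0.0110), and it was also -0.61 (edgeR adjusted p = 0.000182) without replicate 3 of each mutant genotype. In the same library Acta2, the smooth muscle actin, was at 165 normalized CPM, against 79.7 and 89.7 in the other 2 Epha2-null libraries and 44.7 to 65.9 in wild-type libraries. The summed level of the 3 listed of 6 pericyte and smooth muscle markers ranged over 64.6 to 74.7 normalized CPM in Epha2-Q722 lenses, 67.1 to 93.6 in Epha2-indel722 lenses, 100.4 to 195 in Epha2-null lenses and 58.3 to 86.3 in wild-type lenses. The defining markers Myh11, Cnn1 and Cspg4 were not listed, and the part of these cells in the Itpr1 values was not tested.

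Itpr2 had 4.98, 6.16 and 10.98 normalized CPM in Epha2-Q722 lenses, 9.39, 9.12 and 8.44 in Epha2-indel722 lenses, 7.26, 7.56 and 5.64 in Epha2-null lenses and 7.30, 9.004 and 7.27 in wild-type lenses. Every group overlapped wild type and none passed the edgeR test (log2 fold change -0.076 and adjusted p = 0.919 for Q722, 0.19 and 0.679 for indel722, -0.20 and 0.683 for null). Replicate 3 of Epha2-Q722 was far above the other 2 libraries of its genotype. Without it the log2 fold change was -0.49 (edgeR adjusted p = 0.0508), and without replicate 3 of each mutant genotype it was -0.49 (edgeR adjusted p = 0.0220). Scaled by library totals alone, the sign turned in Epha2-Q722 (0.078) and in Epha2-null lenses (0.062).

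Per exon length, the IP3 receptor genes made up different parts of their summed level. Itpr3 was 38.7%, 35.7% and 28.0% of the sum in Epha2-Q722 libraries and 28.6%, 28.0% and 28.3% in Epha2-indel722 libraries. It was 27.2%, 23.2% and 23.1% in Epha2-null libraries and 18.2%, 22.2% and 16.5% in wild-type libraries, so that every mutant library had a larger Itpr3 share than every wild-type library. Itpr1 was the largest part in all 12 libraries, at 46.6% to 47.9% in Epha2-Q722 lenses, 42.2% to 47.0% in Epha2-indel722 lenses, 41.7% to 59.2% in Epha2-null lenses and 48.2% to 59.3% in wild-type lenses. Itpr2 ranged over 13.4% to 24.1% in Epha2-Q722 lenses, 24.6% to 29.2% in Epha2-indel722 lenses, 17.7% to 31.2% in Epha2-null lenses and 22.5% to 29.6% in wild-type lenses. The shares use Itpr3, which was chosen for its change, and carry no test.

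**Figure D2:**
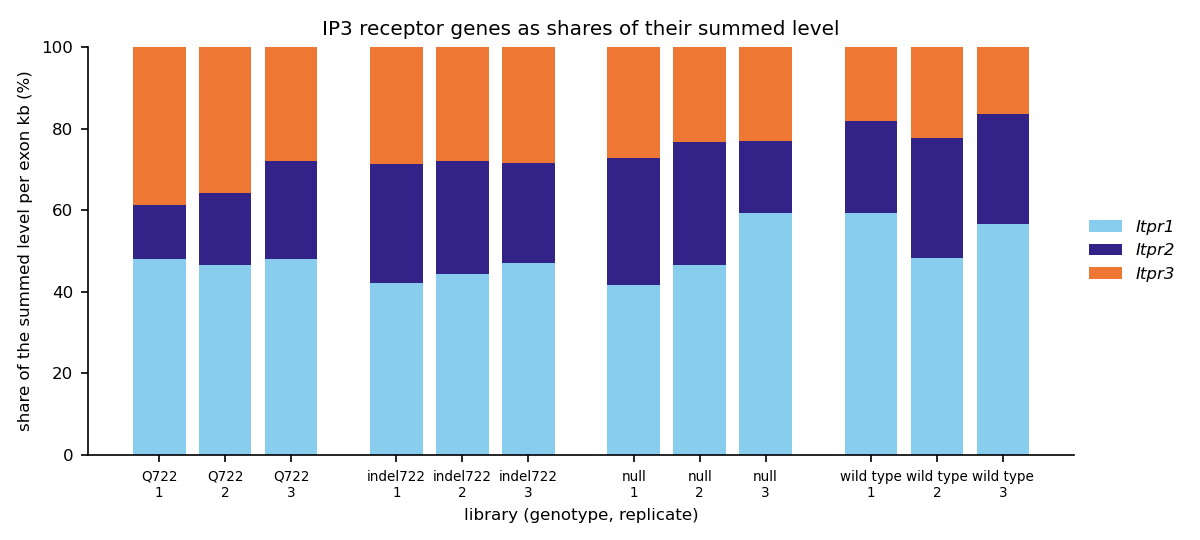
Share (percent, linear axis) of Itpr1, Itpr2 and Itpr3 in their summed normalized CPM per kb of exon, with 1 stacked bar per library, for Epha2-Q722, Epha2-indel722, Epha2-null and wild-type lenses. The upper segment, Itpr3, ran from 28.0% to 38.7% in Epha2-Q722 libraries and from 16.5% to 22.2% in wild-type libraries.

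Among the pumps, Atp2a2, the SERCA pump, had 116, 111 and 125 normalized CPM in Epha2-Q722 lenses, 113, 115 and 100.4 in Epha2-indel722 lenses, 109, 113 and 105 in Epha2-null lenses and 111, 111 and 107 in wild-type lenses. The fold over wild type was 1.06 (95% interval 0.972 to 1.16) in Epha2-Q722 lenses, 0.994 (0.908 to 1.09) in Epha2-indel722 lenses and 0.994 (0.908 to 1.09) in Epha2-null lenses, and none passed the edgeR test (adjusted p = 0.499, 0.953 and 0.955). At 1478 to 2439 reads per library this was the most precise comparison among the listed genes. Scaling by library totals alone put the median log2 fold change over the whole table at 0.15 in Q722, 0.17 in indel722 and 0.28 in null lenses. The values of Atp2a2 then turned positive in Epha2-indel722 lenses (0.16, edgeR adjusted p = 0.172) and passed in Epha2-null lenses (0.26, edgeR adjusted p = 0.0192), below the median of the table in both.

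Atp2b1, a plasma membrane calcium pump, was lower in Epha2-indel722 lenses, with 3.63, 3.30 and 3.50 normalized CPM, against 4.37, 4.94 and 4.77 in wild-type lenses. The groups did not overlap, and the fall passed the edgeR test (log2 fold change -0.44 ± 0.13, SE, or 0.739-fold, adjusted p = 0.0264). Epha2-Q722 lenses (4.20, 4.61 and 4.39 normalized CPM) and Epha2-null lenses (4.25, 4.46 and 4.32) overlapped wild type and did not pass (log2 fold changes -0.095 and -0.12, edgeR adjusted p = 0.775 and 0.637). The call in Epha2-indel722 lenses was lost in 5 of 12 cases of leaving out 1 library (adjusted p up to 0.0975, for Epha2-indel722 replicate 1, 2 or 3 or wild-type replicate 2 or 3), with DESeq2 (adjusted p = 0.116) and when scaled by library totals alone (log2 fold change -0.27, edgeR adjusted p = 0.133). Without replicate 3 of each mutant genotype it stayed (log2 fold change -0.44, edgeR adjusted p = 0.0487).

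Cabp5 had the largest fold changes of the 9 genes. Its level was 7.18, 7.86 and 7.15 normalized CPM in Epha2-Q722 lenses, 34.0, 30.5 and 25.2 in Epha2-indel722 lenses, 21.8, 23.2 and 20.5 in Epha2-null lenses and 8.43, 7.06 and 8.18 in wild-type lenses. Epha2-indel722 lay above Epha2-null and both lay above the other 2 groups without overlap, and Epha2-Q722 overlapped wild type. The fold over wild type was 0.942 (95% interval 0.787 to 1.13) in Epha2-Q722 lenses, 3.81 (3.27 to 4.44) in Epha2-indel722 lenses and 2.77 (2.37 to 3.25) in Epha2-null lenses. Per 1000 reads of Atp2a2 in the same library, Cabp5 had 57.4 to 71.1 reads in Epha2-Q722 lenses, 251 to 302 in Epha2-indel722 lenses, 195 to 204 in Epha2-null lenses and 63.4 to 76.1 in wild-type lenses.

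Because CABP5 is known from the retina, retinal neuron markers were read beside it. Of 10 markers 2 were listed, Trpm1 and Prkca, and the others, Crx, Nrl, Grm6, Rcvrn, Pcp2 and Snap25 among them, were not. The summed level of the listed pair was 55.7 to 58.8 normalized CPM in Epha2-Q722 lenses, 49.4 to 52.8 in Epha2-indel722 lenses, 45.0 to 49.9 in Epha2-null lenses and 56.0 to 63.8 in wild-type lenses. Most of this sum was Prkca, a kinase also found outside the retina, with 50.5 to 53.8 normalized CPM in Epha2-Q722, 44.5 to 47.8 in Epha2-indel722, 39.4 to 45.2 in Epha2-null and 50.9 to 59.2 in wild-type lenses. Trpm1, a channel of bipolar cells, had 4.95 to 6.08 normalized CPM in Epha2-Q722, 4.88 to 5.37 in Epha2-indel722, 4.30 to 5.62 in Epha2-null and 4.59 to 6.53 in wild-type lenses, and all groups overlapped. The part of retinal cells in the Cabp5 values was not tested. None of the 7 macrophage, 5 red blood cell and 5 corneal epithelium markers was listed. In whole lenses, fewer cells that express a gene and less of its RNA per cell cannot be told apart.

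**Figure D3:**
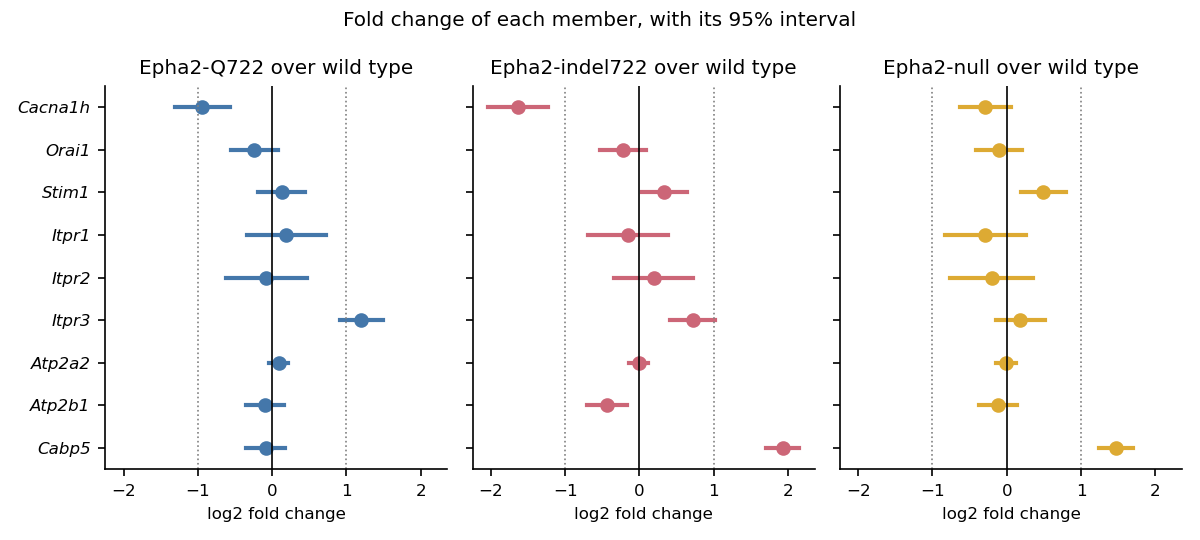
Log2 fold change over wild type (points) with its 95% interval (lines) from the edgeR fit for each of the 9 listed genes, with a panel for Q722, indel722 and null lenses. Dotted lines mark a 2-fold change, which Itpr3 passed in Epha2-Q722 (1.20), Cabp5 in Epha2-indel722 (1.93) and Epha2-null (1.47) and Cacna1h in Epha2-indel722 (-1.63). These genes were chosen for their change, and their intervals are not read as tests.

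Under the call rule of the study, at least 2-fold with an adjusted p no higher than 0.05, 1 of 9 genes was called in Epha2-Q722 lenses (0.807% of all genes), 2 of 9 in Epha2-indel722 lenses (1.01% of all genes) and 1 of 9 in Epha2-null lenses (0.841% of all genes). All 4 calls were of genes chosen for their change, so nothing is read from these shares. Of the 6 other genes, 0 passed the adjusted p alone in Epha2-Q722 lenses (6.37% of all genes), 1 in Epha2-indel722 lenses (13.1%) and 1 in Epha2-null lenses (11.2%). The 0 in Epha2-Q722 lenses came with 0 genes at an unadjusted p under 0.05, and DESeq2 and the edgeR exact test also called 0. In 1, 2 and 1 of the 6 genes the libraries did not overlap those of wild type in Q722, indel722 and null lenses, against 22.4%, 32% and 28.6% of all genes.

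Between the mutant genotypes, the 6 genes not chosen for their change were compared in 3 pairs, and 0 of 18 tests passed the edgeR adjusted p. At an unadjusted p under 0.05 there were 3, DESeq2 called 0 and the edgeR exact test 2. The smallest adjusted p was 0.0817, for Stim1 in Epha2-null over Epha2-Q722 lenses (log2 fold change 0.36, 95% interval 0.07 to 0.65). Atp2b1 in Epha2-indel722 over Epha2-Q722 lenses followed (-0.34, 95% interval -0.61 to -0.08, edgeR adjusted p = 0.0837). The share of all genes past the adjusted p was 12.4% in Epha2-indel722 over Epha2-Q722, 17% in Epha2-null over Epha2-Q722 and 9.85% in Epha2-indel722 over Epha2-null lenses. For Atp2a2 the interval of the fold was 0.854 to 1.02 in Epha2-indel722 over Epha2-Q722, 0.854 to 1.02 in Epha2-null over Epha2-Q722 and 0.914 to 1.09 in Epha2-indel722 over Epha2-null lenses.

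The other genes of calcium handling were taken from 10 lists by role, with 82 of 180 genes listed. In Epha2-Q722 lenses 3 rose and 3 fell past the edgeR adjusted p (7.32%, against 6.37% of all genes). In Epha2-indel722 lenses 9 rose and 8 fell (20.7%, against 13.1%), and of those tested in Epha2-null lenses 6 were up and 7 down (15.9%, against 11.2%). The median log2 fold change of the 82 genes was -0.056 in Q722 lenses (0.0048 over all genes), -0.0098 in indel722 lenses (-0.0016) and -0.0073 in null lenses (0.011). Scaled by library totals alone, 11 rose and 2 fell in Q722 lenses, 22 rose and 4 fell in indel722 lenses, and 46 rose and 2 fell in null lenses. Over all 8676 genes this scaling gave 1163 up and 134 down in Q722, 2178 and 210 in indel722, and 4695 and 153 in null lenses. The excess of rises under it is therefore shared by the whole table.

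**Figure D4:**
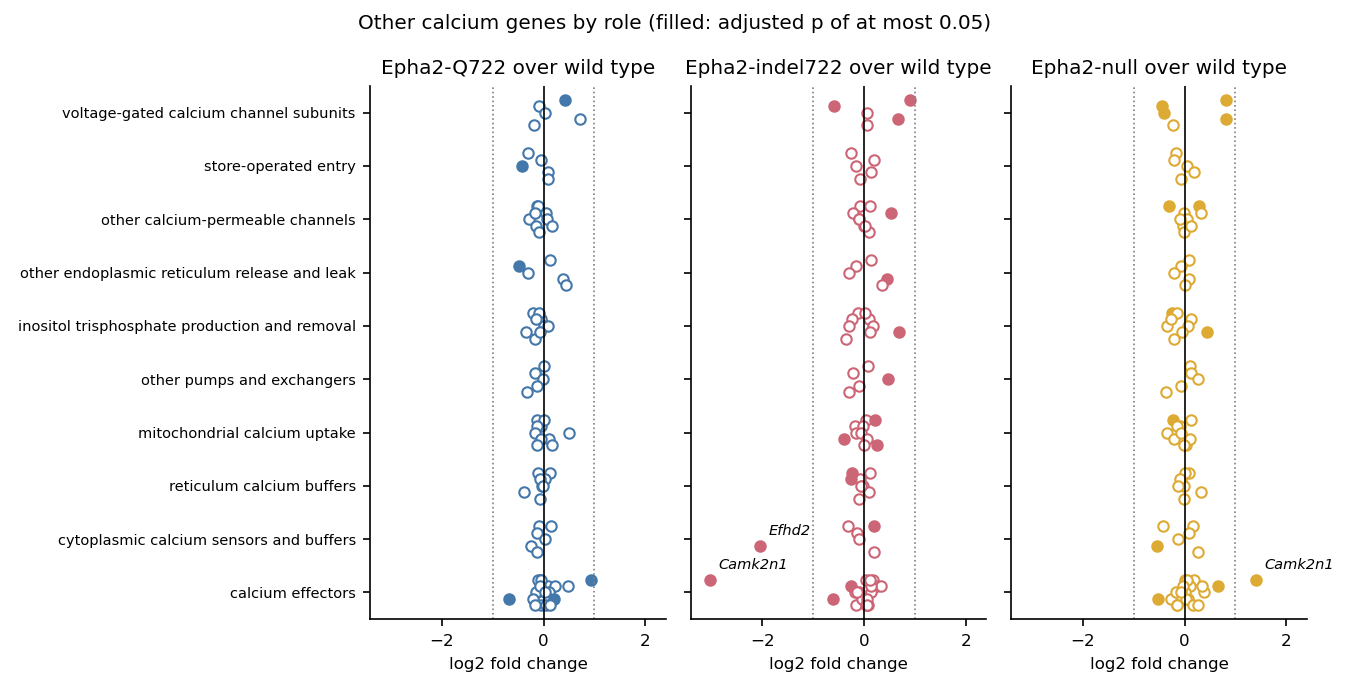
Log2 fold change over wild type of the 82 other calcium genes, 1 point per gene, in 10 lists by role, for Epha2-Q722, Epha2-indel722 and Epha2-null lenses, with filled points where the adjusted p was 0.05 or less and dotted lines at a 2-fold change. Most points lie within the dotted lines, and Efhd2 (-2.04) and Camk2n1 (-3.02) in Epha2-indel722 lenses and Camk2n1 (1.41) in Epha2-null lenses lie outside them and passed. Camk2n1 was near the floor in Epha2-indel722 lenses.

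Among voltage-gated channel subunits, 5 of 25 were listed. Past the edgeR adjusted p, 1 rose in Epha2-Q722 lenses (20%, against 6.37% of all genes), and 2 rose and 1 fell in Epha2-indel722 lenses (60%, against 13.1%). In Epha2-null lenses 2 rose and 2 fell (80%, against 11.2%). The list has 5 genes and was drawn up with earlier results known, so nothing is read from these shares. Cacna1a, the pore of the P/Q-type channel, rose in each mutant genotype: it averaged 7.76 ± 0.644 normalized CPM in Epha2-Q722, 10.8 ± 0.208 in Epha2-indel722, 10.1 ± 0.820 in Epha2-null and 5.72 ± 0.682 in wild-type lenses (SD, n = 3 each). Its log2 fold changes were 0.42, 0.90 and 0.81 (edgeR adjusted p = 0.0289, 3.83e-06 and 2.58e-05). The comparisons share the wild-type libraries, and leaving out 1 library raised the adjusted p in Epha2-Q722 lenses to as much as 0.150. The other subunits past the test are named here after their values were seen. Cacna1d, the pore of an L-type channel, fell in Epha2-indel722 lenses (log2 fold change -0.59, edgeR adjusted p = 0.000292) and Epha2-null lenses (-0.43, edgeR adjusted p = 0.00582), and Cacna2d1, an accessory subunit, fell in Epha2-null lenses (-0.40, edgeR adjusted p = 0.0216). Cacng4, another accessory subunit, rose in Epha2-indel722 lenses (0.67, edgeR adjusted p = 0.0471) and Epha2-null lenses (0.81, edgeR adjusted p = 0.0167). With 1 library left out the adjusted p reached 0.0762 for Cacna2d1 in Epha2-null lenses, and 0.215 in Epha2-indel722 and 0.0968 in Epha2-null lenses for Cacng4.

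In store-operated entry 5 of 10 genes were listed and Saraf, which turns this entry off, fell in Epha2-Q722 lenses to 28.4 ± 1.95 normalized CPM, against 37.9 ± 2.83 in wild-type lenses (log2 fold change -0.41, edgeR adjusted p = 0.000769). Stim2, the second sensor, and Orai2, a second channel, did not pass in any comparison, with log2 fold changes of 0.087, 0.13 and 0.19 for Stim2 and -0.31, -0.25 and -0.17 for Orai2 in Q722, indel722 and null lenses. Of 9 listed other calcium-permeable channels, Trpc6, a channel gated by diacylglycerol, rose in Epha2-indel722 lenses (0.53, edgeR adjusted p = 0.00461), and Tpcn1, a channel of endosomes and lysosomes, rose in Epha2-null lenses (0.29, edgeR adjusted p = 0.00476). Pkd1 had log2 fold changes of -0.28, -0.11 and 0.046 and passed in none.

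On the release side, Ahcyl2, a relative of a protein that binds IP3 receptors, fell in Epha2-Q722 lenses to 13.9 ± 0.412 normalized CPM, against 19.4 ± 0.899 in wild-type lenses (log2 fold change -0.48, edgeR adjusted p = 0.000353). Ahcyl1, that IP3 receptor binder, passed in none (0.13, 0.13 and 0.088), and Jph2, which holds reticulum and plasma membrane together, rose in Epha2-indel722 lenses (0.45, edgeR adjusted p = 0.0114). Itpkb, a kinase that removes IP3 by phosphorylating it, rose in Epha2-indel722 lenses (11.7 ± 0.300 normalized CPM, log2 fold change 0.68, edgeR adjusted p = 8.43e-05) and in Epha2-null lenses (9.81 ± 0.279, log2 fold change 0.44, edgeR adjusted p = 0.0104), against 7.23 ± 0.930 normalized CPM in wild-type lenses. Gna11, a G protein subunit that activates phospholipase C, fell in Epha2-null lenses (-0.25, edgeR adjusted p = 0.0170).

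On the removal and buffering side, Slc24a3, a sodium-calcium-potassium exchanger, rose in Epha2-indel722 lenses (0.48, edgeR adjusted p = 0.00472), and the sodium-calcium exchanger Slc8a1 passed in none (-0.32, -0.29 and -0.36). Of 10 listed mitochondrial uptake genes, Letm1 fell in Epha2-null lenses (-0.22, edgeR adjusted p = 0.0185). Mcub, a uniporter subunit that limits uptake, did not pass (0.50, -0.15 and -0.35). The reticulum buffer Rcn2 fell in Epha2-indel722 lenses (-0.23, edgeR adjusted p = 0.0245) and the calsequestrin Casq1 passed in none (-0.37, 0.10 and 0.33).

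The largest changes were in cytoplasmic sensors and effectors. Where these genes lie relative to Epha2 was not examined, so effects of sequence linked to the edited locus cannot be told apart. Efhd2, an actin-binding protein with calcium-binding EF hands, fell in Epha2-indel722 lenses to 27.3 ± 3.93 normalized CPM (log2 fold change -2.04, edgeR adjusted p = 1.18e-09) and in Epha2-null lenses to 77.6 ± 9.23 (-0.54, edgeR adjusted p = 0.00171), against 113 ± 9.47 in wild-type lenses. Camk2n1, an inhibitor of the calmodulin-dependent kinase CaMKII, was at 5.42 ± 0.938 normalized CPM in Epha2-Q722, 0.348 ± 0.161 in Epha2-indel722, 7.49 ± 1.34 in Epha2-null and 2.82 ± 0.648 in wild-type lenses, and each difference from wild type passed. Its Epha2-indel722 level is near the floor, and it met the 3 CPM filter through the Epha2-Q722 and Epha2-null libraries, where it is high. The size of its differences is therefore uncertain and in part set by that filter. Camk2d, a subunit of that kinase, fell in Epha2-Q722 lenses (-0.68, edgeR adjusted p = 0.000266) and Epha2-indel722 lenses (-0.62, edgeR adjusted p = 0.000418). Rcan2, an inhibitor of the calcium-activated phosphatase calcineurin, rose in Epha2-Q722 lenses (0.21, edgeR adjusted p = 0.0227) and fell in Epha2-null lenses (-0.52, edgeR adjusted p = 1.35e-06).

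Genes near the called members were read to place them on the chromosome. Within 1 Mb of Cacna1h lay 55 listed genes, of which 4 rose and 6 fell past the edgeR adjusted p in Epha2-Q722 lenses (18.2%, against 6.37% of all genes), 5 rose and 6 fell in Epha2-indel722 lenses (20%, against 13.1%) and, in Epha2-null lenses, 3 fell and 0 rose (5.45%, against 11.2%). The lowest were Tsc2 in Epha2-Q722 lenses (log2 fold change -1.09) and Decr2 in Epha2-indel722 lenses (-1.08). Around Itpr3 lay 30 genes, of which 4 passed in Epha2-Q722 lenses (13.3%), 6 in Epha2-indel722 lenses (20%) and 3 in Epha2-null lenses (10%), with Hmga1 (-1.23) lowest in Epha2-Q722 lenses. Windows of the 2 genes overlap and share Decr2, Mrpl28 and Fam234a among others. Around Cabp5 lay 11 genes, of which 0, 0 and 2 passed in the edgeR test. These shares are a description with no test.

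**Figure D5:**
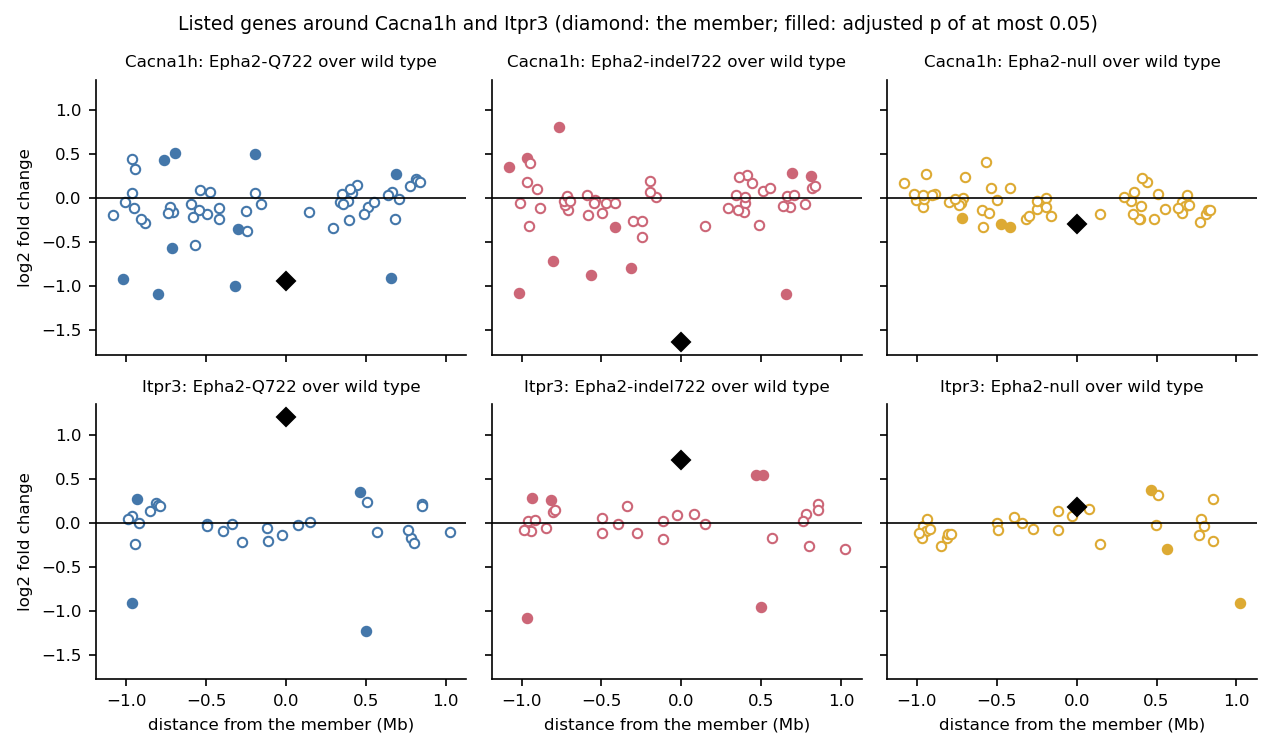
Log2 fold change over wild type of listed genes within 1 Mb of Cacna1h (upper row) and Itpr3 (lower row) against the distance between gene starts in Mb, for Epha2-Q722, Epha2-indel722 and Epha2-null lenses, with filled points where the adjusted p was 0.05 or less and a diamond for the gene itself. Filled points lay on both sides of 0, such as Tsc2 (-1.09) and Msrb1 (0.52) around Cacna1h in Epha2-Q722 lenses.

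Patterns most like those of the called members were sought by Pearson's r of log2 normalized CPM over the 12 libraries, which share 4 genotypes and are therefore not independent points. For Cacna1h these were Zfp758 (r = 0.95, also on chromosome 17), Pygl (0.94) and Sec14l1 (0.94). Zfp758 averaged 2.93 ± 0.0949 normalized CPM in Epha2-Q722, 1.77 ± 0.308 in Epha2-indel722, 5.14 ± 0.362 in Epha2-null and 7.47 ± 0.535 in wild-type lenses. For Itpr3 they were Gm6969 (0.93), Mut (0.93, on chromosome 17) and Metap2 (0.92). Gm6969 averaged 18.4 ± 0.968 normalized CPM in Epha2-Q722, 8.60 ± 2.17 in Epha2-indel722, 0.625 ± 0.0536 in Epha2-null and 0.573 ± 0.112 in wild-type lenses. The mean of Gm6969 exceeded 3 normalized CPM only in the edited genotypes, and that of Zfp758 only in Epha2-null and wild-type lenses. Both were thus listed mainly through the groups where they are high, and their likeness is in part set by the 3 CPM filter. For Cabp5 they were Gstp1 (0.97), Rgs8 (0.97) and Exoc3 (0.96), none of them on chromosome 7. Gstp1, a glutathione transferase, averaged 178 ± 11.3 normalized CPM in Epha2-Q722, 400 ± 16.8 in Epha2-indel722, 417 ± 14.5 in Epha2-null and 195 ± 13.5 in wild-type lenses.

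In both edited genotypes Cacna1h lay below and Itpr3 above wild type, while both genes were lower in Epha2-indel722 than in Epha2-Q722 lenses. Reads of Cacna1h per 100 reads of Itpr3 were 22.8, 28.5 and 36.2 in Epha2-Q722 lenses and 24.4, 22.8 and 29.1 in Epha2-indel722 lenses. They were 106, 97.1 and 79.5 in Epha2-null lenses and 133, 126 and 131 in wild-type lenses. The 6 libraries of the edited genotypes were all below the 6 other libraries, through which Cacna1h was listed, and Epha2-null was below wild type without overlap. Both genes were chosen for their change over wild type, so the separation of this ratio was in part fixed by that choice and nothing is tested by it.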

How the data were processed

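Poly(A) RNA of 12 lens pools was sequenced by the authors, who per the labels and methods used STAR (2.5.3a), SAMtools (1.4.1) and HTSeq (0.11.0) on mm10 to make the deposited counts per gene, and CPM, which the authors computed on library totals. The annotation release and strand setting are not given in the sources used here. Deposited log2 fold changes, p-values and FDR of the authors' own comparisons were not used, and 0 sample columns were left out.

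Counts were fitted with edgeR (4.0.16, R 4.3.3; quasi-likelihood, robust, TMM on library totals, genotype only, all 12 libraries), with Benjamini-Hochberg adjustment over 8676 genes. P-values measure the spread between lens pools, each of 6 lenses. All other text values (normalized CPM, shares, ratios) were computed from the counts. Library totals were taken as deposited counts divided by deposited CPM. Scripts were tested on simulated data. Alternatives were other scalings, DESeq2 (1.42.0), the edgeR exact test, 2 groups only, a mean CPM of at least 10, a fold of 1.5, a replicate block, leaving out each library, coding length, and, chosen after seeing the data, 2 libraries of each mutant genotype. Dates in the symbol column were restored to symbols for 14 genes.

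The members and lists were chosen with earlier results of these data known. Named were all members, each list's gene with the smallest adjusted p per comparison, each list gene with a fold of at least 2 past the adjusted p, and the 3 genes most like each called member. Some items that these rules and lists would name are not reported here.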

Additional observations from a re-analysis of the deposited data

Results flagged for a closer look

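Every Epha2-indel722 and Epha2-null library lay above the wild-type mean of Cabp5 (log2 fold changes 1.93 and 1.47), and every Epha2-Q722 library lay slightly below it (-0.086). In Epha2-Q722 lenses the libraries overlapped wild type, and the sign turned when scaled by library totals alone (0.063). No test is read from the difference between genotypes, since the gene was chosen for its change.

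Other named calcium genes differed between 2 mutant genotypes past the edgeR adjusted p, and for each the pair with the smallest p is given here with its log2 fold change. These genes were named by their results over wild type in the same libraries, and the pair was picked by its p. The adjusted p-values are therefore a description and no separate support. Of all genes, 12.4% passed in indel722 over Q722, 17% in null over Q722 and 9.85% in indel722 over null lenses. In Epha2-indel722 over Epha2-Q722 lenses these were Cacna1a (0.48, adjusted p = 0.00271), Efhd2 (-1.79, adjusted p = 6.89e-09), Itpkb (1.02, adjusted p = 4.34e-07), Slc24a3 (0.50, adjusted p = 0.00292) and Trpc6 (0.70, adjusted p = 0.000408). In Epha2-null over Epha2-Q722 lenses they were Ahcyl2 (0.42, adjusted p = 0.00069), Camk2d (0.42, adjusted p = 0.0106), Casq1 (0.70, adjusted p = 0.000153), Mcub (-0.86, adjusted p = 0.00054), Rcan2 (-0.74, adjusted p = 2.93e-09), Saraf (0.47, adjusted p = 7.78e-05) and Tpcn1 (0.41, adjusted p = 0.00011). In Epha2-indel722 over Epha2-null lenses they were Camk2n1 (-4.43, adjusted p = 4.92e-11), Jph2 (0.37, adjusted p = 0.0417), Letm1 (0.26, adjusted p = 0.0060) and Rcn2 (-0.25, adjusted p = 0.0195). Camk2n1 was near the floor in Epha2-indel722 lenses and was listed through groups where it is high, so its value is limited by the filter.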

How the results depend on the processing

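For 27 fold changes of members over wild type, 549 values under alternatives were computed: 511 kept their direction and side of the threshold, 13 no longer passed, 6 newly passed and 19 changed sign, and the cause was not tested. Scaled by library totals alone, the sign turned for Itpr2 (0.078), Atp2b1 (0.056) and Cabp5 (0.063) in Q722 lenses, Itpr1 (0.013) and Atp2a2 (0.16) in indel722 lenses and Orai1 (0.16), Itpr2 (0.062), Atp2a2 (0.26) and Atp2b1 (0.15) in null lenses. Without replicate 3 of each mutant genotype it turned for Stim1 in Q722 (-0.035) and Atp2a2 in indel722 (0.048) and null lenses (0.018). With 1 library left out, values ran from -0.034 to 0.24 for Stim1 and -0.49 to 0.12 for Itpr2 in Q722 lenses, from -0.046 to 0.048 for Atp2a2 in indel722 lenses, and from -0.23 to 0.055 for Orai1 and -0.038 to 0.018 for Atp2a2 in null lenses.

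Members past the adjusted p numbered 2 in Q722, 4 in indel722 and 2 in null lenses (6.37%, 13.1% and 11.2% of all genes passed), and 2 to 2, 3 to 4 and 1 to 2 when 1 library was left out. Most of these are Cacna1h, Itpr3 and Cabp5, chosen for their change, so the counts describe the settings and test nothing. Without these genes they are 0, 1 and 1. With a fold of at least 2 they numbered 1, 2 and 1, and 1 to 2, 2 to 2 and 1 to 1 when 1 library was left out. Among genes of mean CPM of at least 10, which keep 3 members, the counts were 0, 1 and 1 past the adjusted p and, with the fold, 0 in Q722 and 1 in indel722 lenses. Library totals gave 4 and DESeq2 1 past the adjusted p in null lenses. In Q722 lenses a fold of 1.5 or 2 libraries of each mutant genotype gave 2 called members, Itpr3 and Cacna1h. Other calcium genes numbered 6, 17 and 13, and 4 to 10, 9 to 19 and 8 to 16 when 1 library was left out. They numbered 13, 26 and 48 under library totals, 13 in Q722 lenses with 2 libraries of each mutant genotype, and 11 with DESeq2 and 9 at a mean CPM of at least 10 in indel722 lenses. Under library totals 1163, 2178 and 4695 of all 8676 genes rose past the adjusted p, and 134, 210 and 153 fell.

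By the correlation between libraries of different genotypes, the replicate numbers of the labels did not pair the samples. Same-number r ran from -0.14 to 0.20 in 18 pairs, 1 of them over 0.1. Different-number r ran from -0.16 to 0.20 in 36 pairs, 9 of them over 0.1. The same-number pair over 0.1 was replicate 3 of Epha2-null and Epha2-Q722 (0.20), and an effect shared by replicate 3 libraries was not tested. A replicate block gave 2, 4 and 2 members past the adjusted p, and other calcium genes numbered 10 in Q722, 16 in indel722 and 15 in null lenses. Cacna1h, with 26 to 88 reads per library, had the shallowest values, and small differences in it were not detectable at this depth.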
